A study of Mus musculus with 10 samples.

Results

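Chemoattractant receptors are G protein-coupled receptors of the cell surface that bind chemokines or related peptides and steer cell movement along a gradient of their ligand. The 7 receptor genes described here are Cx3cr1 (the receptor of fractalkine), Ccr1 and Ccr2 (receptors of inflammatory CC chemokines), Cxcr4 and Ackr3 (the signalling and the scavenging receptor of CXCL12), and Cmklr1 and Ccrl2 (the signalling and the non-signalling receptor of chemerin). They were taken by symbol from 18384 genes listed in the mRNA-seq data and were chosen by the IL-4 response measured in these same libraries, so their differences between groups are given below as a description, with no test. All 7 were listed, and 6 of 7 had enough reads to enter the fit across all genes. Ccr2 did not.

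The libraries came from adipocyte precursors (APs), the fibroblast-like progenitors of fat cells, isolated from the subcutaneous white adipose tissue of C57BL/6J mice. APs had been enriched with magnetic beads, first by removing cells that carry CD45 (leukocytes) or CD31 (endothelium) and then by keeping cells that carry SCA-1, and were cultured in DMEM F12 with fetal bovine serum. The control group (3 libraries, numbered 1 to 3) received no IL-4, and the IL-4 group (3 libraries, numbered 4 to 6) received this type 2 cytokine from one day after seeding until harvest on day 4. The age of the mice is not given in the sources used here, nor is it stated whether the libraries of a group came from separate mice or cultures, so each p-value measures only the spread between these libraries.

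Conventional receptors of this family couple to inhibitory G proteins and drive migration, whereas atypical receptors such as ACKR3 and CCRL2 bind ligand without that coupling and remove it or hold it at the cell surface. In adipose tissue CX3CR1, CCR1 and CCR2 are known mainly from monocytes and macrophages, CXCR4 from leukocytes and progenitor cells, ACKR3 from stromal and endothelial cells, and CMKLR1 from macrophages and cells of the adipocyte lineage. Chemerin itself is an adipokine that is secreted as an inactive precursor and is activated by proteases.

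Each library held 28526782 to 29057787 expected counts, the reads that RSEM assigned to genes, and 14009 genes passed the count filter. Adipocyte precursor markers were detected for 13 of 13 genes in both groups, and those of macrophages for 18 of 18, although CD45-positive cells had been removed. The macrophage markers summed to 149026 to 187923 normalized counts (counts scaled to the mean effective library size) in the control libraries and to 72364 to 91857 in the IL-4 libraries, and none was at 0. Of 10 markers of macrophages exposed to IL-4, 9 were tested and 9 were higher with IL-4. Across all genes tested 19.0% were higher and 18.4% lower (edgeR, adjusted p under 0.05). The untested marker, Ccl17, went the other way, with 6, 4 and 7 reads in the controls against 1, 0 and 3 with IL-4. All 10 summed to 11991 to 14741 normalized counts in the controls against 162958 to 201105 with IL-4. Endothelial markers summed to 1608 to 1731 and 2569 to 3201. Their sums scaled by transcript length (FPKM) overlapped, at 17.3 to 18.2 against 17.3 to 19.1. Of these 9 markers 2 were higher and 4 lower (edgeR, adjusted p under 0.05), and Vwf went from 191 to 1608 mean normalized counts. The T cell genes Cd3e, Cd3g, Cd3d and Trac and the NK cell gene Ncr1 were at 0 in every library. Control replicate 3 had the highest normalized count of the 3 controls for 16 of 18 macrophage markers and for 7 of 7 receptors described here, and it held 169 reads of Arg1 and 77 of Chil3, genes that IL-4 induces in macrophages, against 62 to 64 and 4 to 9 in the other 2 controls. In the IL-4 group, replicate 6 differed from replicates 4 and 5 by a mean chi-square of 45.8 and 36.7 per gene, against 2.49 between those 2. In bulk RNA, fewer cells of a type cannot be told apart from less RNA per cell.

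Cx3cr1 was well expressed in control APs and was close to absent from IL-4–treated APs. Its expected counts were 1484, 1725 and 1853 in control replicates 1, 2 and 3, against 3, 3 and 5 in IL-4 replicates 4, 5 and 6. All 3 control libraries were high, all 3 IL-4 libraries were near 0, and the groups did not overlap. Normalized counts were 1601 ± 170 (SD, n = 3) without IL-4 and 3.86 ± 1.13 (SD, n = 3) with IL-4. The fitted log2 fold change of Cx3cr1 was -8.65 (SE 0.18), the lowest of the 14009 genes tested. Over all libraries of a group there were 5062 reads against 11, a ratio of 414 after scaling (95% exact interval from counting error alone, 231 to 829).

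Ccr1 was about as abundant in both groups. Its expected counts were 673, 719 and 905 in the controls against 689, 722 and 823 with IL-4, and the groups overlapped. Normalized counts were 726 ± 109 and 786 ± 57.8 (SD, n = 3 each), with a log2 fold change of 0.11 (SE 0.11) that turned to -0.06 when libraries were scaled by their totals alone. Ccr2, the receptor through which blood monocytes follow CCL2, was close to absent, with 5.02, 4.01 and 13.04 expected counts in the controls against 4, 4 and 6.01 with IL-4. The highest value was that of control replicate 3, and the other 5 libraries lay close together. The fractions show that part of its few reads was shared with other genes, and 22 against 14 rounded reads gave a scaled ratio of control over IL-4 of 1.41 (95% exact counting interval 0.691 to 2.98), so neither a difference nor its absence was detectable at this depth.

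Both receptors of CXCL12 differed, in opposite directions. Cxcr4, the signalling receptor, had 423, 367 and 523 expected counts in the controls against 145, 166 and 168 with IL-4. Each IL-4 library lay below each control library. Its normalized counts were 415 ± 70.1 and 169 ± 11.8 (SD, n = 3 for both), with a log2 fold change of -1.30 (SE 0.14) or 2.46-fold lower. Ackr3, the scavenging receptor formerly called CXCR7, had 209, 201 and 225 expected counts in the controls against 1098, 1138 and 1223 with IL-4. Its groups were far apart and each was narrow. Normalized counts of Ackr3 were 201 ± 9.30 and 1217 ± 44.1 (SD, n = 3 for both), with a log2 fold change of 2.60 (SE 0.07) or 6.06-fold higher, which ranked 217th from the highest of 14009 genes.

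The 2 chemerin receptors described here did not differ alike. Cmklr1, which signals after chemerin binds, had 628, 624 and 693 expected counts in the controls against 301, 294 and 257 with IL-4, with no overlap. Normalized counts were 615 ± 30.2 and 300 ± 30.6 (SD, n = 3 each), and the log2 fold change was -1.03 (SE 0.09). Without control replicate 3 the Cmklr1 value was -0.99, and without IL-4 replicate 6 it was -0.95, both short of a 2-fold difference. Ccrl2, which presents chemerin to neighbouring cells, was read 32, 42 and 55 times in the control libraries and 33, 55 and 35 times in the IL-4 libraries. Its groups overlapped throughout, and the scaled ratio of control over IL-4 was 0.943 (95% exact counting interval 0.730 to 1.22).

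Of the 7 receptors 1 was higher and 3 were lower in every IL-4 library than in every control library, and 3 overlapped. Among all 14009 genes tested, 25.2% lay apart above and 25.3% apart below. Without control replicate 3 the log2 fold changes of Cx3cr1, Ackr3 and Cxcr4 were -8.58, 2.63 and -1.16, and without IL-4 replicate 6 they were -8.90, 2.58 and -1.32. These receptors were picked from this very contrast, so their counts are not read against those shares.

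**Figure D1:**
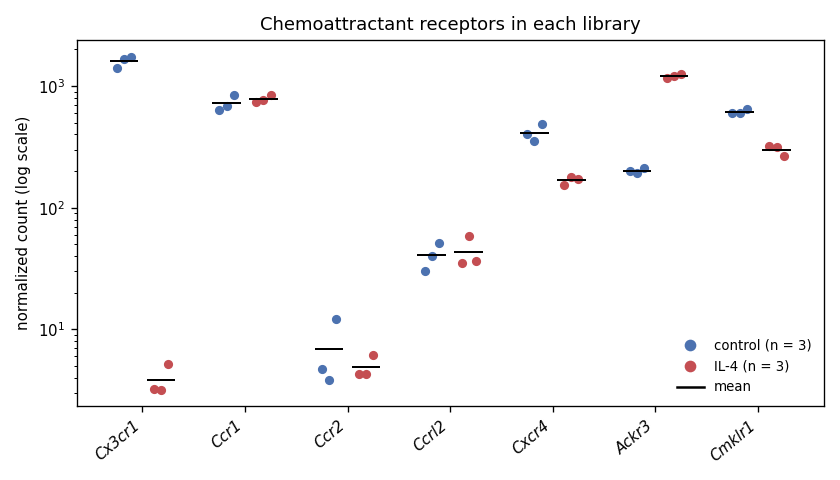
Normalized counts (log axis) of the 7 receptors in each of 3 control libraries (blue) and 3 IL-4 libraries (red), with the group mean as a bar. Cx3cr1 lies at 1411 or above in the controls and at 5.16 or below with IL-4, Ackr3 is higher with IL-4, Cxcr4 and Cmklr1 are lower, and Ccr1, Ccr2 and Ccrl2 overlap.

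The order of the receptors by level also changed. Levels were compared between genes as FPKM, the fragments mapped per unit of transcript length and library size. Cx3cr1 was the most abundant of the 7 in control APs, with 14.07, 16.39 and 17.52 FPKM, and lay above the range of each other receptor. Ccr1 at 9.68 ± 1.53, Cxcr4 at 8.72 ± 1.55 and Cmklr1 at 8.15 ± 0.465 FPKM (SD, n = 3 each) followed, and neighbours among them overlapped. Ackr3 at 3.71 ± 0.192, Ccrl2 at 0.77 ± 0.225 and Ccr2 at 0.0733 ± 0.0493 FPKM (SD, n = 3 each) came next, each with a range apart from its neighbour.

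In IL-4–treated APs Ackr3 stood first, with 19.05, 19.72 and 21.08 FPKM, and Ccr1 second, with 9.29 ± 0.840 FPKM (SD, n = 3). Cmklr1 at 3.53 ± 0.304 and Cxcr4 at 3.14 ± 0.243 FPKM overlapped. Ccrl2 followed at 0.73 ± 0.173 FPKM (SD, n = 3). Cx3cr1, with 0.03, 0.03 and 0.05 FPKM, had moved from first to last place and overlapped with Ccr2.

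**Figure D2:**
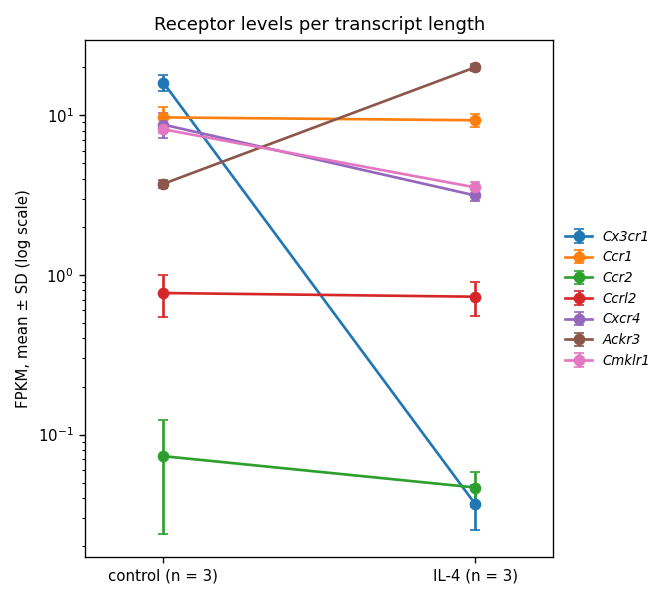
Mean FPKM (log axis) of each receptor in control and IL-4 libraries, with the SD over 3 libraries as error bars and a line joining the groups. Cx3cr1 goes from the first place at 16.0 FPKM to the last at 0.0367, and Ackr3 from 3.71 to the first place at 19.95.

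The 7 receptors together summed to 43.2, 45.0 and 53.1 FPKM in the controls against 35.0, 36.7 and 38.5 with IL-4. These FPKM were scaled for library size and not by TMM. Scaling by library totals moved the median of all genes by -0.17 on the log2 scale relative to TMM. The size of the difference between these sums therefore depends on the scaling. Cx3cr1 made up 32.6% to 36.4% of the summed FPKM in control APs and 0.0819% to 0.130% in IL-4–treated APs. Ackr3 made up 7.39% to 8.52% and 53.8% to 54.7%. Within a library the FPKM ratio of Ackr3 to Cxcr4, which share CXCL12, was 0.377 to 0.483 in the controls and 6.03 to 6.66 with IL-4. The ratio of the signalling chemerin receptor Cmklr1 to Ccrl2 was 8.69 to 14.4 and 3.92 to 5.95.

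Beside the macrophage markers, the receptors differed in how far they moved. Of the 18 markers, 15 were lower and 2 higher in IL-4–treated APs (edgeR, adjusted p under 0.05), against 18.4% and 19.0% of all genes. The log2 fold changes of the markers ran from -4.43 (Aif1) to 0.88 (Cd163), with a median of -0.91. Csf1r, the receptor of the main macrophage growth factor, was at -1.05 and Adgre1, which encodes F4/80, at -0.24, while Ptprc, which encodes CD45, was at -0.99. The value of Cx3cr1 was lower than that of each of these 18 genes, which follows from its being the lowest of all 14009 tested.

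Set against the summed macrophage markers within each library, Cx3cr1 gave 9.47, 11.1 and 9.25 normalized counts per 1000 marker counts in the controls against 0.0444, 0.0422 and 0.0562 with IL-4. That direction, too, follows from Cx3cr1 having the lowest log2 fold change of all genes tested. Cmklr1 gave 4.01, 4.01 and 3.46 against 4.45, 4.13 and 2.89, so that the groups overlapped on this scale. Ccr1 gave 4.29, 4.62 and 4.52 against 10.2, 10.2 and 9.25, and lay apart on this scale although it overlapped in normalized counts. Relative to Adgre1 alone, Cmklr1 was 0.125 to 0.135 in the controls and 0.0654 to 0.0813 with IL-4, so its overlap depended on the markers used.

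Cxcr4 was 0.0762 to 0.0945 relative to Adgre1 in the controls and 0.0391 to 0.0441 with IL-4, but 0.0363 to 0.0471 and 0.0333 to 0.0384 relative to Csf1r, where the groups overlapped. Ackr3 was higher with IL-4 against the summed markers, Adgre1 and Csf1r, for example from 0.0407–0.0449 to 0.296–0.311 relative to Adgre1. These Ackr3 ratios add no support. Ackr3 was chosen by its IL-4 response, and the marker sum, Adgre1 and Csf1r were all lower with IL-4. The part of macrophages in these values was not tested.

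**Figure D3:**
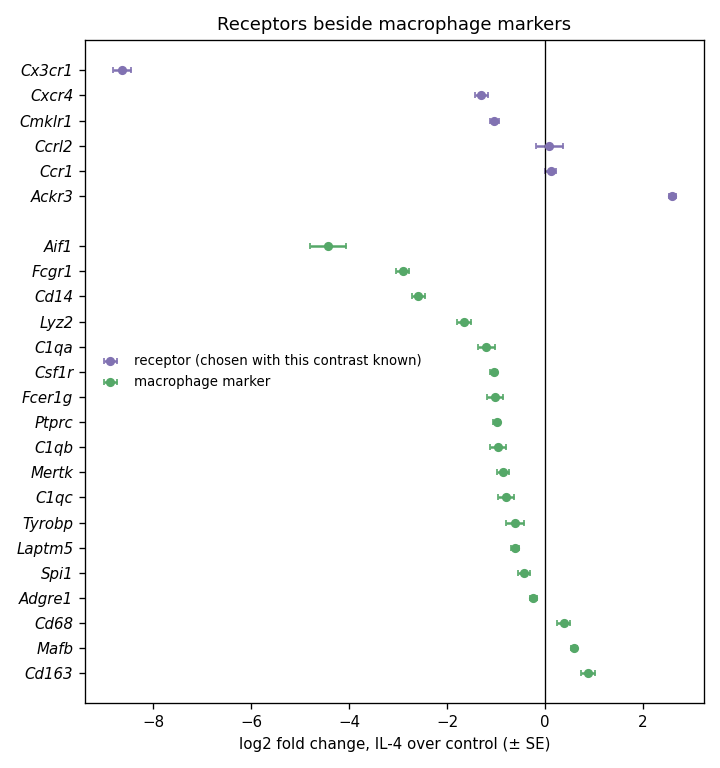
Fitted log2 fold change (IL-4 over control, with its SE) of the 6 receptors that entered the fit (purple) and of 18 macrophage markers (green). Cx3cr1 at -8.65, the lowest of all genes tested, lies to the left of every marker. Cmklr1 and Cxcr4 lie among the markers at -1.03 and -1.30, and Ackr3 at 2.60 lies to the right of every marker.

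Genes with profiles nearest to each receptor were found by the Euclidean distance between centred log2 CPM over the 6 libraries, a description that rests mostly on the size of the IL-4 difference. The nearest 5 genes to Cx3cr1 were Trem1 (distance 3.66), Clec4e, Gpr84, Itgal and Fcrl1, with log2 fold changes of -5.70, -4.48, -4.77, -4.63 and -5.94. Trem1 and Clec4e encode activating receptors of myeloid cells, Gpr84 a receptor of medium-chain fatty acids on myeloid cells and Itgal the alpha chain of the leukocyte integrin LFA-1. Each of these 5 lay above Cx3cr1, as did every other gene tested, because Cx3cr1 had the lowest log2 fold change of all 14009. The other receptors had closer neighbours, which were Ifitm6 and B3gnt5 for Cxcr4 (distances 0.183 and 0.201), Ankrd55 and Tnfsf13b for Ackr3, Bend4 and Gcnt1 for Cmklr1, Mif4gd and 9130221H12Rik for Ccr1, and Sync and Sdhaf3 for Ccrl2.

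On the mouse genome (mm10, which is GRCm38) 4 of the 7 receptor genes lie on chromosome 9. Cx3cr1 is at chr9:120048683-120068296 on the minus strand, with Ccr8, another chemokine receptor gene, 23836 bases away. Ccr1 (chr9:123962126-123968692, minus strand) and Ccr2 (chr9:124101918-124109140, plus strand) belong to a run of 7 receptor genes from Ccr9 to Ccr2 that spans 341930 bases, and Ccr1 lies 3893829 bases from Cx3cr1. Within that run the levels in control APs differed widely, with 9.68 FPKM for Ccr1 and 0.127 or less for each of the other 6. Ccr8 next to Cx3cr1 had 2 reads in all 6 libraries together.

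Ccrl2 (chr9:111054834-111057518, minus strand) lies apart from the run. Cxcr4 (chr1:128588199-128592299, minus strand) and Ackr3 (chr1:90203980-90215724, plus strand) share chromosome 1 but are 38372474 bases apart, and Cmklr1 is at chr5:113612355-113650475 on the minus strand. In the RefSeq annotation the coding sequence lies in 1 exon for each receptor except Cxcr4, which has 2 coding exons, and the proteins are 354 to 373 residues long.

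The promoters of Cx3cr1, Ackr3 and Cxcr4 are shown because these are the receptors with the largest differences, and because Ackr3 and Cxcr4 share a ligand but differ in opposite directions. Each is 250 bases before and 50 bases from the RefSeq start site on, read 5′ to 3′ on the strand of the gene in GRCm38.p6. Capitals mark matches to the TATA box letters TATAAA on either strand, which were searched after the sequences had been seen. The 2 matches in Cxcr4, on opposite strands, overlap.
Cx3cr1, chr9:120068247-120068546, minus strand: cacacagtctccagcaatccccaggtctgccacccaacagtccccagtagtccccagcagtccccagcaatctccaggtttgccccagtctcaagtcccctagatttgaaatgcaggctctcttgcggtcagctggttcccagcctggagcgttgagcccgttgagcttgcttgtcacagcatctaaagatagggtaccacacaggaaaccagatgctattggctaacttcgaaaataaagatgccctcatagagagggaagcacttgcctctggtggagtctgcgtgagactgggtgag
Cxcr4, chr1:128592250-128592549, minus strand: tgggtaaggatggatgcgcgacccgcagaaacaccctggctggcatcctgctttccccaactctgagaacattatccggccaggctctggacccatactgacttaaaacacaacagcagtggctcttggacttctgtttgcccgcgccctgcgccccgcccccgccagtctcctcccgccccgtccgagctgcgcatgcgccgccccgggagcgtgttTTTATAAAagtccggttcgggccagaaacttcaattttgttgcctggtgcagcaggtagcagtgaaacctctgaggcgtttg
Ackr3, chr1:90203730-90204029, plus strand: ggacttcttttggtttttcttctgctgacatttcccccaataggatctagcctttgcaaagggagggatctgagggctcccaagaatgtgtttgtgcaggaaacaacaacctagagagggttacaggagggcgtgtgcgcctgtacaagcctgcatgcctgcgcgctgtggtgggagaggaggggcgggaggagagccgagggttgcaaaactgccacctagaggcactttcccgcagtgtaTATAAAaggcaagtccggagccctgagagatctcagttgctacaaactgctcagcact

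TATAAA begins 30 bases before the start site of Cxcr4 and 8 bases before that of Ackr3, and 13.6% of the 32851 RefSeq promoters of the same length hold it on either strand. All letters were searched on both strands. The letters of a STAT6 site (TTC and GAA with 4 bases between), the factor that IL-4 activates, were in none of the 7 receptor promoters and in 6.95% of all promoters. The STAT letters with 3 bases between (TTCNNNGAA) were likewise in none of the 7, against 8.3% of all. GAGGAA, the core letters bound by the myeloid factor PU.1, were in the promoters of Ccr1 (129 bases before the start) and Cmklr1 (98 bases before) and in 28.3% of all promoters. The Cmklr1 promoter in the table belongs to a start site at 113643603, which is not the start of the transcript that was counted. The presence or absence of letters in these windows is a description and was not tied to binding.

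The ligands of these receptors were tested, though their list was drawn up with earlier results of these data known. Of the 15 ligand genes, 14 passed the count filter, and 10 rose and 3 fell (edgeR's quasi-likelihood test, called where the Benjamini-Hochberg adjusted p over all genes was under 0.05). Across all 14009 genes 19.0% were called higher and 18.4% lower by the same rule, 2663 and 2582 genes (1704 and 4963 when libraries were scaled by their totals alone). The median log2 fold change of the tested ligands was 0.74, against 0.00 for all genes tested.

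Cx3cl1, which encodes fractalkine, the ligand of CX3CR1, had 630, 607 and 579 expected counts in the controls against 178, 178 and 149 with IL-4. Its groups did not overlap, and its log2 fold change was -1.69 (SE 0.10, adjusted p = 8.45e-06 from edgeR). Ligand and receptor of this pair were thus both lower with IL-4.

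Rarres2, which encodes chemerin, had the highest log2 fold change of the ligands. It had 161, 191.76 and 232 expected counts in the controls against 3745.13, 3962.92 and 4861.72 with IL-4, a log2 fold change of 4.58 (SE 0.15, adjusted p = 3.01e-07 from edgeR). Its receptor Cmklr1 was lower, Ccrl2 overlapped, and Gpr1, the third chemerin receptor, was read 3, 4 and 2 times in the control libraries and 0, 0 and 1 times in the IL-4 libraries and was not tested. Cxcl12, the ligand of CXCR4 and ACKR3, was among the most abundant ligands, with 15583 ± 428 normalized counts in the controls against 24819 ± 306 with IL-4 (SD, n = 3 each). Its log2 fold change was 0.67 (SE 0.06, adjusted p = 4.56e-05 from edgeR). Of the other ligands of that pair, Adm (adrenomedullin, which ACKR3 also binds) rose by 0.55 and Mif by 0.46 on the log2 scale, and Cxcl11 was read at most 2 times in a library. The call of Mif (adjusted p = 0.0254) was lost without control replicate 1 (0.0752), without control replicate 2 (0.0950) and with library totals (0.126).

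Among the CC chemokines, all 4 ligands of CCR2 rose although the receptor itself was barely read. Ccl8 had a log2 fold change of 4.36, from 366 ± 25.4 to 7510 ± 1676 normalized counts (SD, n = 3 each), and Ccl7, Ccl12 and Ccl2 had 1.57, 1.45 and 0.80. The other CC chemokines of the list were split. Ccl6 and Ccl9 rose by 3.33 and 1.73 on the log2 scale, Ccl3 and Ccl4 fell, with log2 fold changes of -2.82 and -3.12, and Ccl5, at 7 to 18 reads per library, did not pass the test (adjusted p = 0.911). Ccl6 and Ccl9 are ligands of CCR1, whose own level overlapped between the groups.

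**Figure D4:**
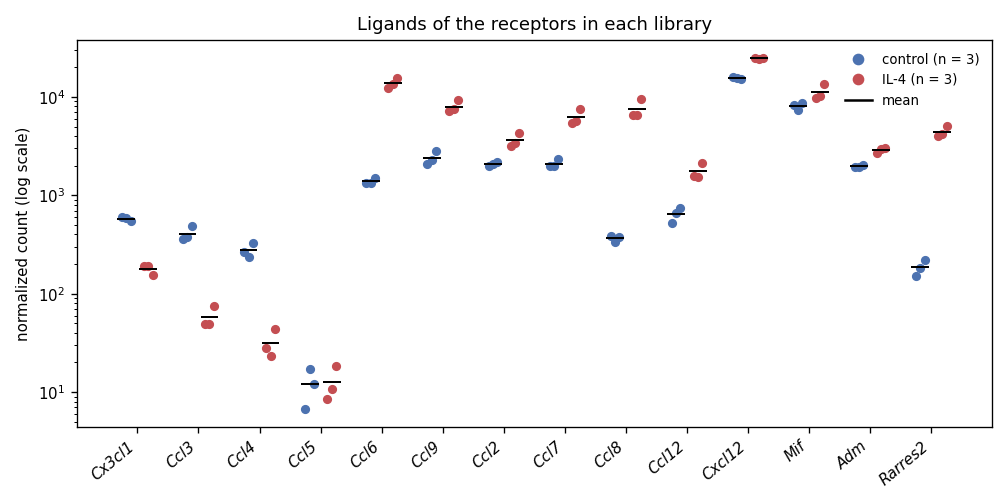
Normalized counts (log axis) of the 14 ligand genes that passed the count filter in 3 control (blue) and 3 IL-4 (red) libraries, with the group mean as a bar. Cx3cl1, Ccl3 and Ccl4 are lower with IL-4, Ccl5 overlaps, and the other 10 are higher, with the widest gaps for Ccl8 and Rarres2.

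The rest of the receptor family was examined with a list of 36 other receptors of chemoattractants, of which 33 were listed and 17 passed the count filter. Of these 17, 2 rose and 11 fell (adjusted p under 0.05, edgeR), against 19.0% of all genes higher and 18.4% lower. Their median log2 fold change was -0.74, against 0.00 for all genes. The 2 that rose were Ackr1, the scavenger of many inflammatory chemokines, and Ltb4r1, a receptor of leukotriene B4. Ackr1 had 76, 68 and 87 expected counts in the controls against 482, 468 and 589 with IL-4, a log2 fold change of 2.89 (SE 0.13, adjusted p = 1.42e-06 from edgeR). The other atypical receptors of the list, Ackr2, Ackr4 and Pitpnm3, had 0 to 6 reads per library. ACKR1 is known from the endothelium of small veins. Of the 9 endothelial markers 2 rose, Vwf at 3.08 and Tek at 0.81, and 4 fell, the lowest being Cdh5 at -1.60, and the part of endothelial cells in the Ackr1 value was not tested. Ltb4r1 went from 3, 8 and 15 to 26, 21 and 35 reads, and its call (adjusted p = 0.0132, edgeR) was lost without control replicate 2 (0.0502).

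Of the CC receptors, Ccr3 and Ccr10, at 6 to 17 reads per library, did not pass the test. Of the CXC receptors, Cxcr3 had 22, 12 and 28 reads in the controls against 1, 1 and 2 with IL-4, a scaled ratio of 13.9 (95% exact counting interval 5.17 to 52.7), and Cxcr2 overlapped. The lymphocyte receptors Ccr4, Ccr6, Ccr7, Ccr9 and Cxcr5 had 3 reads or fewer in every library.

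Among the receptors of complement and formyl peptides, 3 of the 4 tested fell, against 18.4% of all genes tested. C5ar1, the receptor of the anaphylatoxin C5a, fell from 3707 ± 470 to 856 ± 112 normalized counts (log2 fold change -2.11, SE 0.12, adjusted p = 6.26e-06 from edgeR), and the related C5ar2 had -1.55. C3ar1, the receptor of C3a, had the highest normalized counts of the list, at 5413 ± 371 and 5083 ± 134. By FPKM, C5ar1 was higher in the controls, at 56.45 against 47.08 for C3ar1. C3ar1 did not pass the test (adjusted p = 0.325, edgeR), although it was called lower with library totals (adjusted p = 0.0167). Fpr1 had 10, 10 and 17 reads in the controls against 0, 1 and 0, a scaled ratio of 33.3 (95% exact counting interval 5.61 to 1348). The falling receptors moved in the direction of most macrophage markers (median -0.91), whose part in these values was not tested. Of the receptors of lipids and nucleotides, Gpr183, P2ry12, P2ry6, S1pr1, Cysltr1 and Ptafr fell, with log2 fold changes from -1.43 to -0.47, and Ptafr (adjusted p = 0.0269) lost its call without control replicate 2 (0.0872), control replicate 3 (0.0875) or IL-4 replicate 5 (0.0743).

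**Figure D5:**
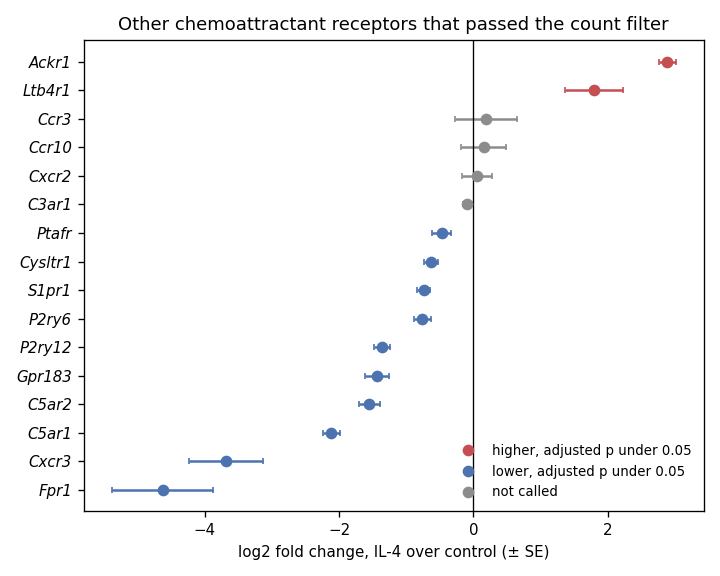
Fitted log2 fold change (IL-4 over control, with its SE) of 16 of the 17 other chemoattractant receptors that passed the count filter, coloured by their call at an adjusted p under 0.05 from edgeR (red higher, blue lower, grey not called). Ackr1 and Ltb4r1 are higher, the 10 receptors shown from Ptafr to Fpr1 are lower, and Ccr3, Ccr10, Cxcr2 and C3ar1 are not called.

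Genes that act downstream of these receptors were listed as 51 genes, and all 51 passed the filter. Of them 7 rose and 28 fell (adjusted p under 0.05, edgeR), with a median log2 fold change of -0.34. Among the 16 genes of the migration machinery of leukocytes 12 fell and 2 rose, against 18.4% of all genes lower and 19.0% higher. Of the 18 macrophage markers 15 fell as well (median -0.91, Ptprc -0.99), and their part in the falls of these genes was not tested. Itgal fell from 178 ± 11.5 to 7.05 ± 1.29 normalized counts and Coro1a, which encodes an actin-binding protein of leukocytes, from 1575 ± 245 to 96.1 ± 5.74 (SD, n = 3 for both groups), with log2 fold changes of -4.63 and -4.03. Itgb2, the beta chain that pairs with the Itgal product, rose by 0.52 on the log2 scale, and Elmo1 by 0.65.

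Of 12 G protein subunits 3 rose and 2 fell, near the shares over all genes tested (19.0% higher and 18.4% lower). Gnai2, which encodes the inhibitory alpha subunit most used by chemokine receptors on leukocytes, was not called. Gnb4 rose by 1.58 on the log2 scale and Gng2 fell by 1.35. The calls of Gnai3 and Gnb1, with rises of 0.19 and 0.25, were lost with library totals, and that of Gnai3 also with no filter (adjusted p = 0.0609) and on leaving out any 1 library but IL-4 replicate 6 (0.0675 to 0.146). Of 7 receptor kinases and arrestins 4 fell and the other 3 were not called. Grk6 lost its call with no filter (adjusted p = 0.0521, edgeR) and on leaving out any 1 library but IL-4 replicate 6 (0.0672 to 0.157). Adrbk2 lost its call on leaving out any 1 control or IL-4 replicate 4 (0.0525 to 0.0639). Arrb2, the arrestin that ends signalling and takes up receptors, fell from 2356 ± 360 to 781 ± 78.6 normalized counts (SD, n = 3) and had a log2 fold change of -1.59 (SE 0.12, adjusted p = 2.94e-05 from edgeR). Of 10 regulators of G protein signalling 6 fell, the lowest being Rgs18 at -1.54 and Rgs1 at -1.34, and 2 rose, Rgs16 at 1.24 and Rgs3 at 0.54. Pik3cg, which encodes the PI3 kinase that G protein-coupled receptors activate in leukocytes, and its partner Pik3r5 fell, with log2 fold changes of -1.33 and -1.22.

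Proteases that cut chemokines, fractalkine or chemerin were listed as 12 genes, of which 10 passed the filter. Of these 6 rose and 0 fell in edgeR (also 0 in DESeq2, and 0 at an unadjusted p under 0.05). Across all genes edgeR called 19.0% higher and 18.4% lower. The median log2 fold change of the tested proteases was 0.54. Ctsk, Mmp2 and Ctsl rose by 1.91, 1.44 and 1.35 on the log2 scale. Adam10 and Adam17, which encode the enzymes that release fractalkine from the membrane, had 5267 ± 334 against 5987 ± 826 and 3183 ± 148 against 3508 ± 333 normalized counts (SD, n = 3 each) and did not pass the test (adjusted p = 0.210 and 0.215, edgeR). Without IL-4 replicate 6 both were called higher, with log2 fold changes of 0.30 and 0.22. Dpp4, which encodes the protease that trims CXCL12, had 33 to 60 reads per library and was called higher without control replicate 2 (adjusted p = 0.0462).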

How the data were processed

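mRNA-seq was performed on control and IL-4–treated APs, and its 6 libraries are used here. The 4 small RNA libraries are not used here. Reads from the BGISEQ-500 were cleaned by the authors with SOAPnuke, and Bowtie2 and RSEM gave the level of each gene on mm10 transcripts. The deposited expected counts are not normalized, and 87.0% of those above 0 are whole (within 0.005), the rest coming from reads shared between genes. The deposited FPKM were scaled by the authors for length and for library size. A gene with no read is left out of that library's file and was taken as 0. One row that names no gene was dropped (at most 0.000225% of the counts). Whether the reads were counted by strand is not given in the sources used here.

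The receptors, the gene lists and the tests were chosen with earlier results of these data known. After rounding, genes were kept by filterByExpr at a minimum count of 10 and a minimum total of 15, libraries were scaled by TMM and groups were compared with edgeR 4.0.16 (quasi-likelihood test, no covariates) under R 4.3.3, with Benjamini-Hochberg adjustment over 14009 genes. The threshold for a call was an adjusted p of 0.05. The biological coefficient of variation was 0.0939. Control libraries held 28526782 to 28674604 expected counts and IL-4 libraries 28914003 to 29057787. Of the counts, 9.14% to 9.59% lay in the 10 most abundant genes of the control libraries and 13.8% to 15.5% in those of the IL-4 libraries. Intervals are exact binomial (95%) and cover counting error only.

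Named were all 7 receptors, the ligands that bind them, the most abundant and the most changed genes of each list, the 5 nearest profiles to Cx3cr1 and the 2 nearest to each other receptor (log2 CPM with a prior count of 2), and neighbouring genes. Values of other listed genes were given after they had been seen. Some listed genes count in the totals of their lists but are not reported here one by one. Besides macrophage, AP, endothelial and lymphocyte markers (0 of 10 lymphocyte genes tested), lists for monocytes (7 tested, 1 higher, 3 lower), dendritic cells (3 tested, 2 higher, 0 lower), granulocytes and mast cells (1 tested, 1 higher) and mature adipocytes (1 tested, 1 higher) were examined. Of 13 AP markers 8 were higher and 2 lower, and of 9 endothelial markers 2 were higher and 4 lower. All these counts stand beside 19.0% of all genes tested higher and 18.4% lower (edgeR, adjusted p under 0.05).

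Alternatives were DESeq2 1.42.0, upper-quartile scaling, each library left out, no filter, and limma 3.58.1 on FPKM after adding 1 or 0.1 and taking log2. Scaling by library totals was an alternative chosen after seeing the data. The tests were tried on simulated data. Promoters come from RefSeq (GRCm38.p6), with an entry for each of the 7 receptors. Figures were drawn with matplotlib 3.10.9 and tables handled with pandas 2.3.3 under Python 3.11.15, and exact intervals came from scipy 1.17.1.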

Additional observations from a re-analysis of the deposited data

How the results depend on the processing

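Directions held for Cx3cr1, Ackr3, Cxcr4 and Cmklr1 under every alternative run. Cx3cr1 was at -8.65 on the log2 scale, at -4.03 with limma on log2(FPKM + 1) and at -6.88 with log2(FPKM + 0.1), where the pseudocount bounds the fall of a gene near 0. Library totals moved the median of all genes by -0.17 on the log2 scale, and values are given relative to TMM. The genes called higher numbered 2663 with TMM, 1704 with library totals, and 1697 and 1694 with limma on log2(FPKM + 1) and log2(FPKM + 0.1). Those called lower numbered 2582, 4963, 4916 and 4904. Leaving out each library gave 2017 to 3198 higher and 1911 to 3014 lower, with 1 to 2 of the other receptors higher and 10 to 11 lower, 9 to 10 ligands higher and 3 lower, 6 to 7 signalling genes higher and 25 to 29 lower, 6 to 8 proteases higher, and 3 to 4 of the described receptors beyond 2-fold. The shifted median goes with the counts under library totals, and for limma on FPKM the cause was not tested. The call lost among the 2 other receptors that rose was that of Ltb4r1, without control replicate 2. Ccr1 ranged from -0.06 to 0.24 and Ccrl2 from -0.18 to 0.29 over all alternatives. Of the 92 tested genes of the lists, 83 to 92 kept their call or lack of one under any 1 alternative. Genes that were not called could change sign, as Ccl5 did (-0.31 to 0.42 on leaving out a library).

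No paired analysis was possible because the control libraries are numbered 1 to 3 and the IL-4 libraries 4 to 6, so the groups share no number. Depth limits Ccr2, Gpr1 and the IL-4 value of Cx3cr1, which rest on 0 to 13.04 expected counts per library.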
